A study of Solanum tuberosum with 100 samples.

Results

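The genes described here are the 200 whose level in bruised potato tubers most closely followed the bruising score of the genotype. They were chosen from the 17152 genes that had a mean of 1 CPM (counts scaled to a library total of 1000000) or more and that were not among the 57 genes which the study itself had called differentially expressed, out of 25163 genes in the table. For each gene, the Spearman rank correlation (rho) was computed between its CPM and the mean bruising score of the genotype, taken over the tubers of both biological replicates. The 100 genes with the highest rho are called the higher members and the 100 with the lowest rho the lower members. The samples were bruised tubers of 100 tetraploid potato (Solanum tuberosum) genotypes from 11 crosses that all have Crop52 as a parent, collected 2 h after a lead weight had been dropped onto the tuber. All samples share this treatment, and no unbruised tuber was sequenced, so levels before and after the impact cannot be told apart. The labels place 33 samples in the high-bruising group and 41 in the low-bruising group by the score of the sequenced tubers, and state that the other 26 were not used in the differential expression (DE) analysis. Each genotype was sequenced once, from the pooled tissue of 3 tubers of 1 biological replicate, while the tubers of its other biological replicate were scored only. The score of the second replicate was missing for 1 genotype, which left 99 genotypes for the ranking. Differences between samples therefore hold the differences between genotypes, plants and libraries together.

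Blackspot bruising is a discolouration of the tuber flesh after an impact. Cells that rupture bring phenolic compounds into contact with polyphenol oxidases, the enzymes that oxidise them to quinones, which polymerise into dark melanin pigments. Chlorogenic acid, the most abundant of these phenolics in tubers, comes from the phenylpropanoid pathway, in which phenylalanine ammonia-lyase makes the first product, 4-coumarate CoA ligase (4CL) activates the acids, and hydroxycinnamoyl quinate CoA transferase (HQT) joins them to quinate. How strongly a genotype discolours also depends on the strength of its cells and on how the tissue responds to wounding.

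Total counts per library ranged from 6832655 to 41650152, so that 1 CPM corresponds to 6.83 reads in the shallowest library. Most members lay well above this level, with a median of the mean CPM of 31.6 over the higher and 49.2 over the lower members, against 15.3 over all genes ranked. Reads were found in all 100 samples for 99 higher and 93 lower members. The total count had a rho of -0.07 with the genotype score, -0.04 with the median level of the higher members and 0.07 with that of the lower members. The tuber label was checked with patatins, the storage glycoproteins of the tuber. PAT1-K1 and PAT2-K4 averaged 1199 ± 997 and 1306 ± 822 CPM (SD, n = 100) and had reads in every sample, while PAT3 averaged 4.86 ± 4.81 CPM and was listed at 0 in some. None of the 200 members carries a gene name in the tables used here, and no member is among the 40 candidate genes that the study compiled from the bruising literature. The members are therefore described by their levels, by their place in the table and by the described genes that vary with them, and only the first 2 of each direction are given by identifier.

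The ranking that chose the members ran from a rho of -0.50 to 0.51, and 57.4% of all genes ranked had a positive value. The last higher member had a rho of 0.384056 and the first gene outside 0.383913. The last lower member had a rho of -0.401123 and the first gene outside -0.4009. The members are thus the ends of a continuous distribution, with no gap at either limit. The quartiles of rho lay at 0.39 and 0.42 for the higher and at -0.44 and -0.41 for the lower members.

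**Figure D1:**
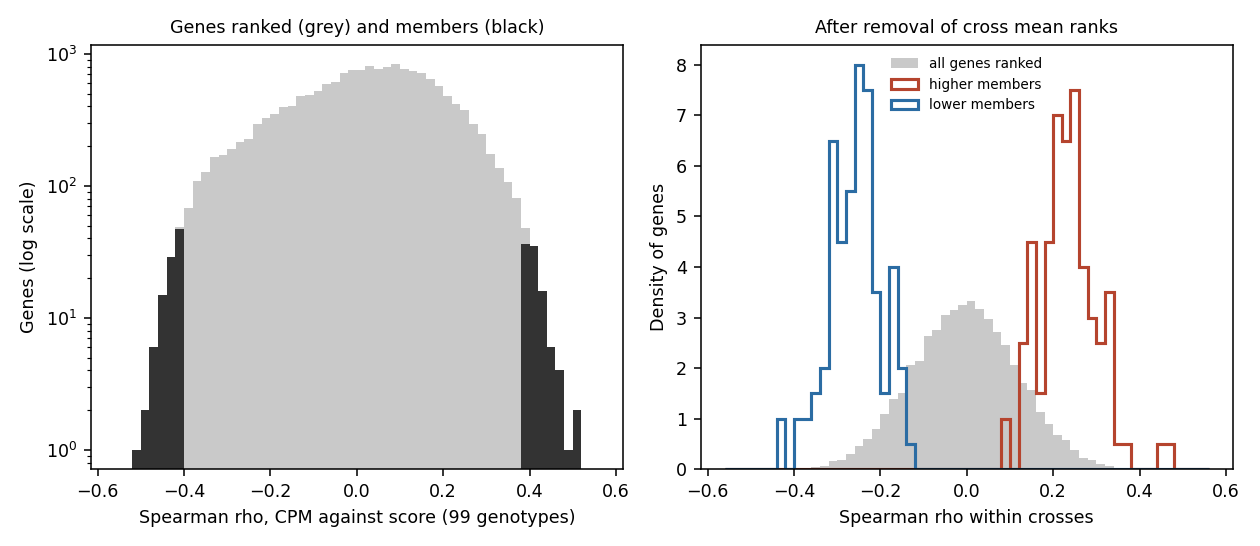
Spearman correlation of CPM with the genotype mean bruising score. Left: all 99 genotypes, with the number of genes on a log axis, all genes ranked in grey and the 200 members in black at both ends. Right: the same correlation after the mean rank of each cross had been subtracted, as densities. The higher members (red) lie between 0.08 and 0.48 and the lower members (blue) between -0.43 and -0.13, on either side of the centre of all genes (grey).

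PGSC0003DMG400024467 had the highest rho of all, 0.51 over 99 genotypes. Its level ran from 37.0 to 126 CPM with a median of 65.1 in the 41 low-bruising samples. It ran from 47.6 to 137 CPM with a median of 85.7 in the 33 high-bruising samples, and from 46.7 to 132 CPM with a median of 75.1 in the 26 samples outside both groups. The median was lowest in the low-bruising and highest in the high-bruising group, yet the groups overlapped over most of their range, and a high-bruising sample exceeded a low-bruising sample in 73.3% of all such pairs. PGSC0003DMG400017523, the second in rank, is the more abundant of the pair. It had 147 to 1175 CPM with a median of 425 in low-bruising samples and 329 to 1112 CPM with a median of 651 in high-bruising samples. Its groups overlapped likewise, although no high-bruising sample fell below 329 CPM.

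PGSC0003DMG400005481 had the lowest rho, -0.50, and is a weakly expressed gene. Its level ran from 1.89 to 10.7 CPM with a median of 5.58 in low-bruising samples and from 1.77 to 10.4 CPM with a median of 3.85 in high-bruising samples. The ranges were nearly the same, and the difference lay in their centres. PGSC0003DMG400028414 (rho -0.50) had 34.2 to 140 CPM with a median of 74.0 in low-bruising samples and 29.0 to 133 CPM with a median of 61.2 in high-bruising samples. Not one of the 200 members separated the groups, since the high- and low-bruising ranges overlapped for every member, as they did for all 25163 genes (0% did not overlap).

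**Figure D2:**
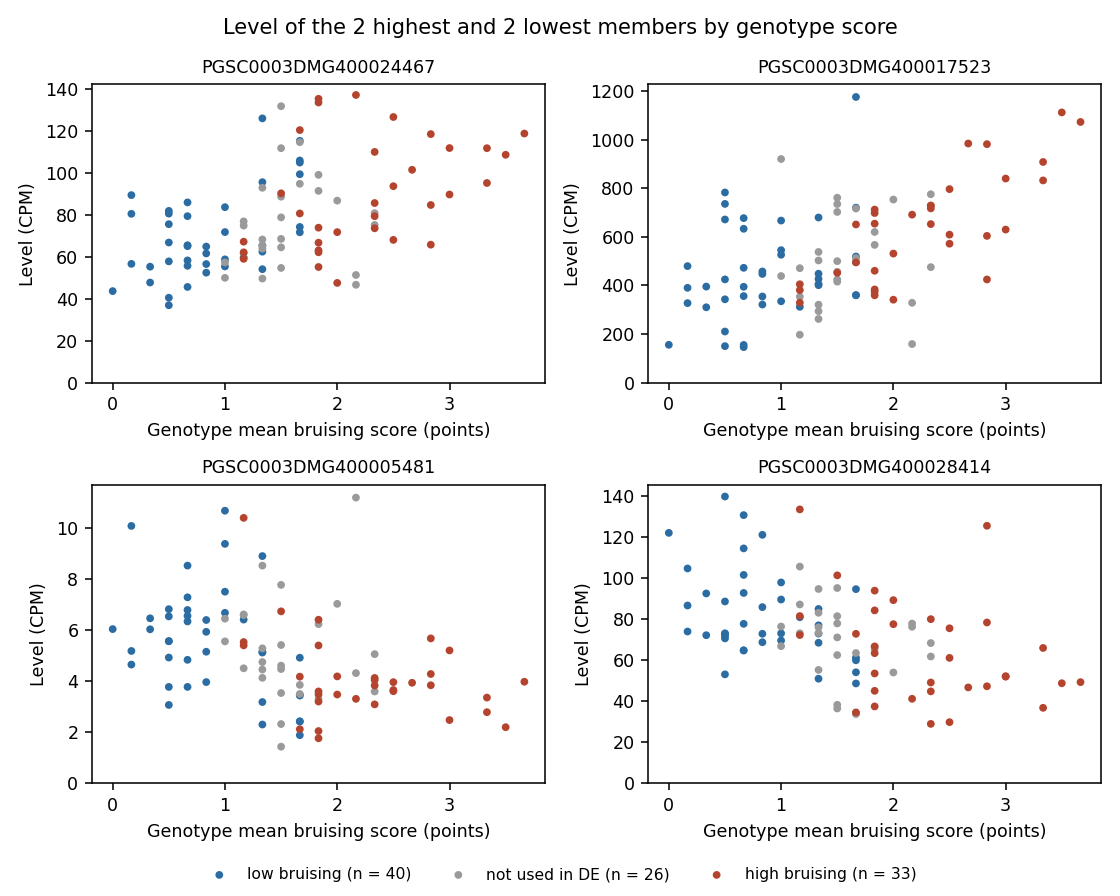
Level in CPM of the 2 highest and the 2 lowest members against the genotype mean bruising score in points, with 1 point per genotype and the labelled groups in colour. The cloud of PGSC0003DMG400017523 climbs from left to right, with no high-bruising sample below 329 CPM, and the highest values of PGSC0003DMG400005481 lie on the left and in the middle.

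These relations kept their direction but weakened without the 2 genotypes farthest from the median score. So small a trim cannot show how much the other extreme scores contributed. Pearson's r went from 0.50 to 0.46 for PGSC0003DMG400024467 and from 0.56 to 0.49 for PGSC0003DMG400017523. It went from -0.41 to -0.40 for PGSC0003DMG400005481 and from -0.47 to -0.45 for PGSC0003DMG400028414. No p-value is given for any of the 4, because the genes were chosen by this correlation out of 17152.

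In size, the changes were modest. A quasi-likelihood fit with edgeR of the counts on the score gave a median slope of 0.22 on the log2 scale per point of score over the higher members, a 1.17-fold increase per point, with slopes between 0.09 and 0.60. Over the lower members the median slope was -0.32 per point, and the slopes lay between -0.86 and -0.12. The median over all 25163 genes was 0.00. PGSC0003DMG400017523 had a slope of 0.37 ± 0.06 (SE), PGSC0003DMG400024467 of 0.26 ± 0.05, PGSC0003DMG400005481 of -0.33 ± 0.07 and PGSC0003DMG400028414 of -0.29 ± 0.05. All 100 higher members passed an adjusted p of 0.05 in the positive direction, where 3.68% of all genes did, and all 100 lower members passed in the negative direction, where 5.31% did. This follows from the way they were chosen. Without cross 2165, 140 of the 200 members and 465 genes in all passed. Fewer cells of a type and less RNA per cell cannot be told apart in pooled tissue.

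The members did not vary independently of each other. Over the 100 samples, the median Spearman correlation between 2 higher members was 0.45 and that between 2 lower members 0.59, and every pair within either set was positive. Between a higher and a lower member it was -0.50 and negative for every pair. Between any 2 genes ranked it was 0.02. Genes that correlate with the same score also correlate with each other to some degree, and these pairs share the same libraries. With the cross means of the ranks subtracted, the medians were 0.23, 0.37 and -0.25, against 0.01 for all genes ranked. The signs within and between the sets are in part fixed by the choice of genes at opposite ends of the same score, and no value for that part was computed. The order of samples from low higher and high lower members to the reverse is called the axis below, and the correlations along it were smaller within crosses.

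On the log2(CPM + 1) scale, the cross of a sample took up 46.5% of the variance of the median higher member and 59.0% of that of the median lower member. For the median gene ranked it was 30.9%. Cross 2165 (Crop52 with Crop18), which had the highest median score, stood at one end. All 100 higher members were above and all 100 lower members were below their means over the 100 samples there, with median deviations of 0.49 and -0.93 on the log2(CPM + 1) scale. Cross 2183 (Crop52 with Crop58), with the lowest median score, stood at the other end at -0.43 and 0.49, and only 2 higher members were above and 1 lower member was below the mean. The samples of these crosses did not overlap, since the median higher member lay between 0.36 and 0.62 in the 9 samples of cross 2165 and between -0.57 and -0.32 in the 5 samples of cross 2183. The median gene ranked deviated by 0.07 in cross 2165 and by -0.10 in cross 2183. The shares of all genes above or below their means were not computed. The members were chosen by the score, so the places of crosses with high or low scores follow in part from the choice.

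Crosses 2121, 2168 and 2172, the next highest in score, lay on the side of cross 2165, with higher members at 0.26, 0.25 and 0.18 and lower members at -0.23, -0.31 and -0.22. The crosses of low score were less uniform. Cross 2170 (Crop52 with Red Rascal) had the second lowest median score, and its 8 samples had no high-bruising genotype, but its members stayed at the overall mean, with 0.00 for the higher and -0.02 for the lower set. Cross 2159 (Crop52 with Driver) had a median score in the middle of the series, and its members lay as far out as -0.28 and 0.38.

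**Figure D3:**
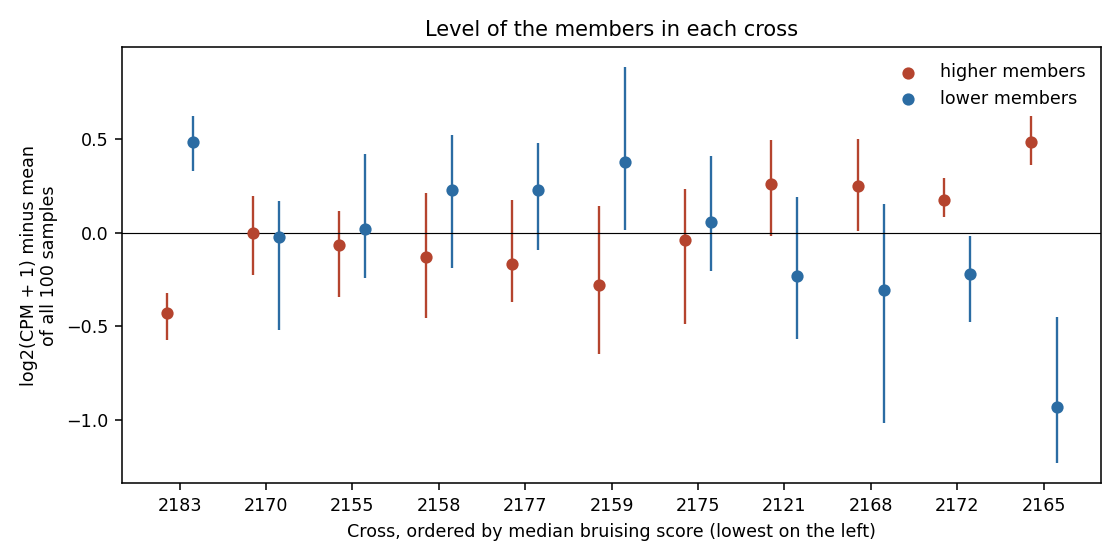
Level of the members in each of the 11 crosses, as log2(CPM + 1) minus the mean of all 100 samples, with crosses ordered by their median bruising score. Points are the median over the 100 members of the mean of the cross, and lines run from the lowest to the highest sample by the median member of each sample. Cross 2183 on the left lies at -0.43 and 0.49 and cross 2165 on the right at 0.49 and -0.93.

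PGSC0003DMG400024467 shows how the cross entered the ranking. Its median was 115 CPM in cross 2121 and 110 CPM in cross 2165, and 46.7 CPM in cross 2183. The 9 samples of cross 2165 (83.7 to 137 CPM) and the 5 samples of cross 2183 (40.5 to 56.6 CPM) did not overlap. Within cross 2165 its rho with the score was -0.17, within cross 2121 it was 0.06, and within cross 2159, the largest with 16 genotypes, it was 0.61. PGSC0003DMG400005481 had the smallest share of its variance between crosses among the 4, and PGSC0003DMG400024467 the largest with 62.3%. The rho of PGSC0003DMG400005481 was negative in 9 of the 11 crosses, from -0.70 in cross 2159 to 0.48 in cross 2121, where its level stayed between 1.44 and 3.99 CPM.

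Within crosses, all members kept their direction at a smaller size. With cross means subtracted from the ranks, the median rho was 0.23 for the higher members (0.08 to 0.48) and -0.25 for the lower members (-0.43 to -0.13), and it was 0.00 over all genes ranked. The same samples had chosen the members, so this is no separate evidence. A higher member was positive in a median of 8 of 11 crosses and a lower member negative in 8, while a gene ranked had the sign of its own rho in a median of 6. There were 2 higher members that were positive in all 11 crosses, and 10 lower members were negative in 10 crosses, the most that any lower member reached.

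With cross as a term in the edgeR fit, the slopes of all 200 members kept their sign and shrank to a median of 52.2% of the slope without it for the higher and 38.4% for the lower members. The median slopes were 0.11 and -0.12 per point. No gene of the 25163 passed an adjusted p of 0.05 in this fit (0%), and 2017 genes (8.02%) had an unadjusted p below 0.05. Among the members, 64 higher and 63 lower genes had such a p. The same score and samples had chosen the members, so an excess over all genes follows in part from the choice. DESeq2 called 2 genes with the same terms, no member among them, and limma-voom called 0. The smallest adjusted p of the edgeR fit over all genes, 0.0634, was that of a higher member without a name, at 14.4 ± 4.42 CPM (SD, n = 100). It was 1 of the 2 members that were positive in all 11 crosses, and its slope was 0.22 ± 0.05 (SE) both with and without the cross term.

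A count that the choice did not fix was obtained by leaving out 1 cross, choosing the 100 highest and 100 lowest genes again in the other 10 crosses, and then counting directions in the cross left out. Between 134 and 160 of the 200 members were chosen again. The genes chosen as higher had a positive median rho in 8 of the 11 crosses left out, and those chosen as lower a negative median rho in 8. The medians over the crosses were 0.12 and -0.14, against 0.01 over all genes ranked, so that the relation in an unseen cross was weak on average.

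The crosses differed widely in this count. In cross 2175 (Crop52 with Crop9), 79 of the 100 higher genes were positive and 86 of the 100 lower genes were negative, where 54.8% and 45.0% of all genes ranked were. The shares were 84 and 93 in cross 2158, against 51.0% and 49.0%, and 80 and 71 in cross 2121, against 52.2% and 47.8%. Crosses 2165 and 2172 were at or below the share of all genes, with 48 and 46 genes in cross 2165 (52.7% and 47.2% of all genes) and 39 and 56 in cross 2172 (39.1% and 60.1%). Cross 2170 went the other way, with 22 of the higher genes positive and 18 of the lower genes negative, where 39.5% and 60.3% of all genes were. Cross 2165 thus stood at the end of the axis as a whole, while the genes chosen without it showed no more of their direction among its 9 genotypes than all genes did. Single members differed there, with a rho of 0.93 for PGSC0003DMG400017523, -0.50 for PGSC0003DMG400005481, -0.12 for PGSC0003DMG400028414 and -0.17 for PGSC0003DMG400024467. Each cross holds 5 to 16 genotypes, and the genes chosen share most of their samples from 1 count to the next and vary together, so the 100 genes of a count are not independent and no test was made.

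**Figure D4:**
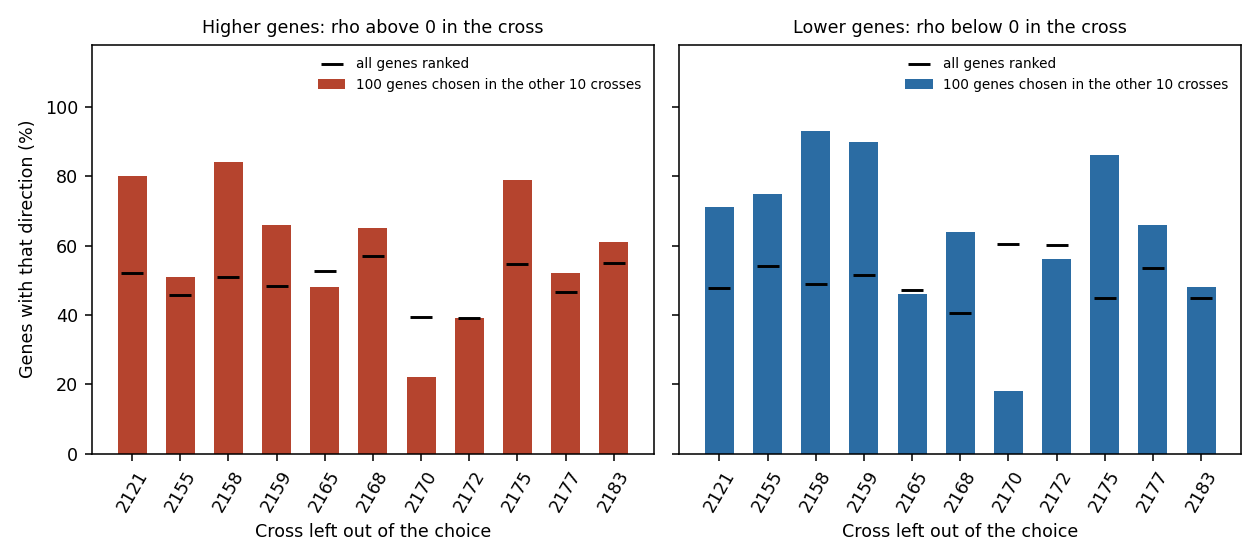
Share of genes with the direction of their set in a cross that took no part in choosing them. Bars give the 100 higher genes (left, rho above 0) and the 100 lower genes (right, rho below 0) and black marks give all genes ranked, in percent. Bars exceed the marks in 8 of the 11 crosses on both sides, and cross 2170 lies below at 22 and 18.

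The genotype of cross 2155 that lacked a second score was not used in the ranking. It belongs to the low-bruising group, so lower levels of the higher members and higher levels of the lower members would follow the pattern. It lay below the median of the 99 genotypes for 36 of 100 higher members and above it for 48 of 100 lower members, so that this sample did not show the pattern of the low-bruising samples.

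In the labelled groups, every higher member had a positive and every lower member a negative difference of high- over low-bruising samples. The medians were 0.29 and -0.38 on the log2 scale, where the quartiles over all genes ranked lay at -0.10 and 0.10. A difference of 1.5-fold or more was found for 7 higher and 17 lower members, and the share of all genes was not computed. No member passed an adjusted p of 0.05 in edgeR, where 46 of the 25163 genes (0.183%) did, and DESeq2 called 58 genes and no member. The choice had left out the 57 genes that the study called in this same comparison. The absence of calls among the members was therefore largely fixed in advance. The smallest adjusted p of a member was 0.0783 in edgeR. An unadjusted p below 0.05 was found for 190 of the 200 members and for 12.4% of all genes. The groups are made from the score of the sequenced tubers, which is part of the score that chose the members. With cross as a term, 88 higher members stayed positive and all 100 lower members negative. Of the 17152 genes ranked, 8214 were positive and 8938 negative in that fit. An unadjusted p below 0.05 was kept by 21 of the 200 members, where 5.34% of all genes had one.

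The score had been taken on tubers of both biological replicates, of which only the sequenced tubers gave RNA. The higher members correlated to a like degree with the score of the sequenced tubers (median rho 0.36) and with that of the other tubers of the genotype (0.35). The lower members correlated more strongly with the other tubers (-0.40) than with those that were sequenced (-0.33), and this held for 82 of 100. Among all genes ranked with a negative rho, 68.3% had the same order. Both scores are part of the mean that chose the members, so these values only describe how the relation was divided. For PGSC0003DMG400024467, the slope was 0.17 ± 0.04 (SE) per point of the score of the sequenced tubers and 0.19 ± 0.04 per point of that of the other tubers.

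Which biological replicate was sequenced played no part in the choice. In the 39 samples of replicate 2 against the 61 of replicate 1, 24 of the 25163 genes (0.0954%) passed an adjusted p of 0.05 in edgeR and none of the members did, the smallest adjusted p of a member being 0.659. DESeq2 called 0 genes. An unadjusted p below 0.05 was found for 15 members in edgeR and 18 in DESeq2, where 5.86% of all genes had one in edgeR. The higher members tended lower in replicate 2, with 86 of 100 differences below 0 and a median of -0.08 on the log2 scale. Of the lower members, 92 of 100 had a difference above 0 (median 0.10). Among the 17152 genes ranked, 9112 differences were below and 8040 above 0. As the members vary together, the counts of members follow from few independent differences. High-bruising samples made up 22 of the 61 samples of replicate 1 and 11 of the 39 of replicate 2. With cross as a term the medians were -0.04 and 0.06.

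Some features of the libraries varied with the members. The number of genes with a count above 0 had a rho of -0.20 with the median level of the higher and 0.26 with that of the lower members, and -0.24 with the score itself. The share of counts in the 50 most abundant genes had a rho of 0.17, -0.30 and 0.10 with the same measures. The part of these measures in the result was not tested.

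Genes with a description allow the axis to be placed among known functions. Of the 40 candidate genes, 35 are in the table, and their rho with the score ran from -0.32 to 0.31 with a median of 0.03, inside the limits of the members. One of the 35, HQT, passed an adjusted p of 0.05 for the slope in edgeR, where 8.99% of all genes did. HQT, the last enzyme of chlorogenic acid synthesis, had a median of 244 CPM in low-bruising and 208 CPM in high-bruising samples and a slope of -0.17 ± 0.06 (SE) per point, with an adjusted p of 0.0399. The call was made under 12 of 22 alternatives. It was lost without cross 2121, 2158, 2159, 2165, 2168 or 2175 (adjusted p of 0.105, 0.0682, 0.092, 0.165, 0.128 and 0.0807), with column totals only (0.0565), with total count as a term (0.0545) and with the score of either replicate alone, over a range of 0.00839 to 0.251. With cross as a term its slope was -0.06 ± 0.06 (unadjusted p = 0.25).

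In the list of phenylpropanoid and peroxidase candidates, 4CL, 4CL2 and HQT correlated more closely with the lower members than with the score. The share of all genes ranked that did so was not computed. 4CL had a median Spearman correlation of 0.59 with the 100 lower members and -0.49 with the 100 higher members over 100 samples, although its rho with the score was only -0.25. The second ligase gene 4CL2 had 0.51 and -0.46 with a rho of -0.19, and HQT had 0.49 and -0.43 with a rho of -0.32. A closer relation to the lower members than to the score was not particular to these genes. The Rhg4-like receptor kinase gene of the study's own list had 0.60 with the lower members and -0.36 with the score. For Phi-2, also of the study's own list, the order was the reverse, at -0.34 and 0.48. Both remaining genes of the phenylpropanoid and peroxidase list, PAL and the peroxidase PEROX, averaged under 1 CPM and had medians of 0.03 and -0.07 with the lower members. With cross means subtracted, 4CL, 4CL2 and HQT had smaller medians, of 0.35, 0.18 and 0.31 with the lower members and of -0.22, -0.18 and -0.24 with the higher members. The slopes of 4CL (-0.25 ± 0.09) and 4CL2 (-0.21 ± 0.11) had adjusted p-values of 0.0526 and 0.229 in edgeR. With cross as a term their slopes were -0.04 and 0.01 (unadjusted p = 0.554 and 0.915).

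None of the enzymes of pigment formation itself was called for the slope. The 6 polyphenol oxidase genes in the table had a rho with the score between -0.21 and 0.17, and 0 of them passed in either direction (edgeR). POT32 and the catechol oxidase gene COB, which average 10.1 and 24.2 CPM, went opposite ways at 0.17 and -0.21. With cross means subtracted from the ranks, the rho of the 6 with the score ran from -0.03 for COB to 0.28. That of POT32 was 0.19. With cross as a term in edgeR, 1 of the 6 had an unadjusted p below 0.05 (0.0174), a gene that averaged 0.04 CPM. With the lower members, the median correlations of the 6 genes ran from -0.07 to 0.42 over all samples. The highest was that of a polyphenol oxidase gene at 1.83 CPM (rho -0.18 with the score), and COB had 0.31. With cross means subtracted, the medians of the 6 ran from -0.16 to -0.02, with -0.02 and -0.04 for these 2 genes, so that the positive correlations lay between crosses. Near-identical copies of these genes may divide or lose reads, since only reads with a single place in the genome were counted.

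The starch genes AGPB1, a subunit of ADP-glucose pyrophosphorylase, and PHO1A, a starch phosphorylase, were the candidates with the highest rho, 0.31 and 0.29. AGPB1 had a slope of 0.14 ± 0.05 per point in edgeR (adjusted p = 0.0611), and the same value of 0.14 with cross as a term (unadjusted p = 0.00579). PHO1A had 0.16 ± 0.06 (adjusted p = 0.0575) and 0.11 with cross (unadjusted p = 0.0664). With cross means subtracted from the ranks, the rho of AGPB1 and PHO1A with the score was 0.30 and 0.15. Their median correlations with the higher members were 0.13 and 0.22, well under those among the members. The 5 patatins had a rho between -0.14 and 0.20 and the 8 protease inhibitors, which are wound-inducible or stored defence proteins, between -0.10 and 0.18, and none of either list was called in edgeR.

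**Figure D5:**
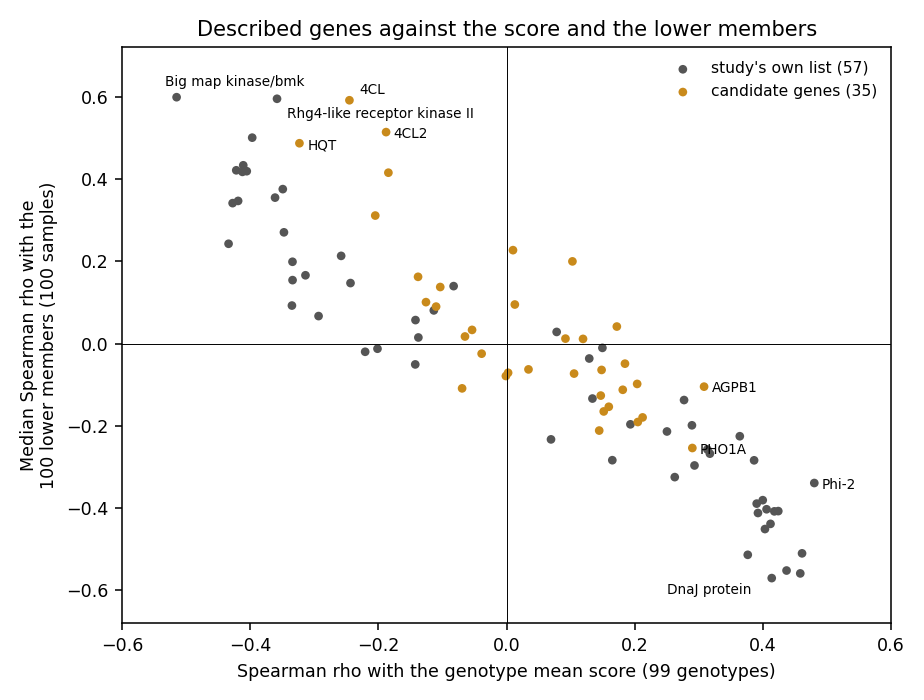
The 92 described genes of the table, by their Spearman correlation with the genotype mean score (99 genotypes, horizontal) and the median of their correlations with the 100 lower members (100 samples, vertical). The candidates 4CL, 4CL2 and HQT lie at 0.59, 0.51 and 0.49 on the vertical axis, and the genes described as big map kinase and Rhg4-like receptor kinase of the study's own list both at 0.60, while AGPB1 and PHO1A lie low on the right.

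The study's own list had been set aside by the choice, and it was made from these samples, so its rho is not independent of the score. Of its 57 genes, 51 had a mean of 1 CPM or more, and 20 of these lay past the limits of the members, 13 above and 7 below. The highest were Phi-2, a phosphate-induced protein, at 0.48, the NPH3 family gene, whose relatives act in phototropic signalling in Arabidopsis, at 0.46, and an N-acetylneuraminate-9-phosphatase at 0.46. The lowest were the kinase gene described as big map kinase at -0.52, beyond any member, a gene for an HSP70-interacting protein at -0.43 and the disease resistance gene RGA3 at -0.43. RGA3 averaged 0.24 CPM, so its rank rests on few reads. The big map kinase gene had 136 CPM in low-bruising and 112 CPM in high-bruising samples as medians. Phi-2, the NPH3 family gene and the phosphatase had slopes of 0.29, 0.43 and 0.44 per point in edgeR. With cross as a term these were 0.22 ± 0.05 (SE), 0.25 ± 0.08 and 0.03 ± 0.07, so the phosphatase kept little of its slope within crosses.

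The described genes most like the leading members came from this list, which holds 57 of the 92 described genes. The list and the members were both chosen by bruising in the same samples, so this likeness follows in part from the choice. Over 100 samples, PGSC0003DMG400024467 was most alike to the N-acetylneuraminate-9-phosphatase (Spearman 0.58), a DnaJ protein, which belongs to the co-chaperones (0.55), and a pentatricopeptide repeat protein, a family that processes organelle RNA (0.54). The same 3 genes were the most alike to PGSC0003DMG400017523, at 0.63, 0.68 and 0.70. PGSC0003DMG400005481 was most alike to the big map kinase gene (0.52), a G protein alpha subunit gene (0.47) and an RNA binding protein gene (0.42). The big map kinase gene was also the most alike to PGSC0003DMG400028414 (0.67) and the most opposite to PGSC0003DMG400024467 (-0.63). Over all lower members its median correlation was 0.60, and the receptor kinase gene described as Rhg4-like had the same median. A mechanosensitive channel gene, of a family that opens under membrane tension, had 0.50.

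The rows of the table appear to follow the genome, since the 92 described genes stand in the order of their chromosomes without exception. By this order, 70 higher and 66 lower members lie between described genes of 1 chromosome. The higher members were spread over all 12 chromosomes, with 13 of the 70 on chromosome 6, which holds 10.9% of the genes so placed, where 1 of the 66 lower members was found. Chromosome 3 held 9 higher and 12 lower members and 13.4% of the genes. Lower members often stood close to each other, as 22 of 100 had another lower member within 5 rows, where 3.80% of all genes ranked had a lower member that near. Among the higher members it was 6 of 100, against 3.99%. Adjacent rows may be related copies or overlapping genes that share reads.

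Some members stood next to described genes. The lower member in the row after 4CL on chromosome 3 was the most abundant of its set with a mean of 1287 CPM, and its levels correlated with those of 4CL at 0.72 over 100 samples. Its own rho with the score was -0.41, against -0.25 for 4CL. A higher member in the row before KTPI, a Kunitz-type proteinase inhibitor, had a rho of 0.40, but correlated with KTPI at only 0.17. A higher member that lay 2 rows from the N-acetylneuraminate-9-phosphatase on chromosome 10 had the largest slope of its set, 0.60 per point, and correlated with that gene at 0.51. The lower member beside the ubiquitin carboxyl-terminal hydrolase gene on chromosome 8 went against it, at -0.28. Of these 4 neighbours, that of 4CL followed its described gene most closely. Other members within 5 rows of a described gene correlated with it between -0.46 and 0.21. Within 5 rows of a gene of the study's own list stood 1 of 100 higher and 4 of 100 lower members, against 2.23% of all genes ranked. Of the neighbouring pairs of lower members, 1 pair on chromosome 12 correlated at 0.92, with means of 139 and 214 CPM.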

How the data were processed

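RNA of bruised tubers was sequenced from polyA-selected libraries. Per the study's methods and the labels, the authors checked reads with FastQC 0.11.7, removed ribosomal reads with SortMeRNA, trimmed with BBDuk, aligned to the PGSC-DM potato genome with STAR 2.6.1 and deposited whole-number counts of uniquely aligned reads per gene, without normalization and after removal of genes with low counts. All 100 columns were used. Counts were divided by column totals to give CPM.

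Members were taken by Spearman correlation with the genotype mean of the scores in the study's supplement. Members and lists were chosen with earlier results of these data known. Slopes on the score (with and without cross), high against low bruising, and replicate 2 against replicate 1 were fitted to all 25163 genes with edgeR 4.0.16 (TMM, quasi-likelihood F test, Benjamini-Hochberg, threshold 0.05) in R 4.3.3. DESeq2 1.42.0 and voom of limma 3.58.1 were alternatives, beside other scalings, filters, scores and samples. Each genotype is 1 library, so p-values measure the spread between libraries of different genotypes. Genotypes of a cross share both parents, and the fits without cross treat their libraries as independent. The p-values of those fits can therefore be too small.

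On counts simulated for the slope on the score over 25163 genes, with 200 genes changed by 0.5 on the log2 scale per point, edgeR called 209 genes, of which 170 were changed genes. Of its 39 false calls, 33 had a mean under 1 CPM, so calls of weakly expressed genes are less reliable. The simulation drew each gene independently and held no differences between crosses. Its slope was also larger in size than the median slopes of the members, 0.22 and -0.32. The shares recovered or falsely called in the real samples may therefore differ. Of the 25163 identifiers, 0 matched the RefSeq table, and names come from the study's tables. Genes named are the 2 highest and 2 lowest members, candidate genes, the 3 highest and 3 lowest of the study's own list, and the 3 described genes most alike to the leading members. PGSC0003DMG400017523, PGSC0003DMG400028414 and the most opposite genes were compared in the same way, and genes next to members, the Rhg4-like kinase and the mechanosensitive channel were added once their values were known.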

Additional observations from a re-analysis of the deposited data

Results flagged for a closer look

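The 4 members given by identifier were examined for single samples far from the rest of their cross, in crosses of 5 to 10 samples. Of 32 such comparisons, 4 held a sample whose gap to its nearest neighbour was large against the range of the cross, and chance gives about 1 in 20. The comparisons are not independent, since members vary together, and CPM were not transformed, so this rate is only a rough guide. PGSC0003DMG400024467 reached 94.9 CPM in 1 sample of cross 2155, where the next was 75.6 CPM and the median 65.3 CPM. PGSC0003DMG400017523 reached 920 CPM in another sample of that cross, above a next value of 513 CPM. Both lower genes stood high in the same sample of cross 2165. There PGSC0003DMG400005481 had 10.7 CPM against a next value of 5.21 CPM, and PGSC0003DMG400028414 had 97.9 CPM against 52.3 CPM. This genotype, progeny 1 of cross 2165, belongs to the low-bruising group.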

How the results depend on the processing

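Of 23 alternatives for choosing the members, 19 kept between 134 and 193 of the 200, including every cross left out in turn (134 to 160). The replicate block, with mean ranks of each replicate number subtracted, kept 192. Fewer were kept with Pearson correlation of log2(CPM + 1) (128), with the score of the other tubers only (115), with that of the sequenced tubers only (94) and within crosses (42). The slope on the score was called for 2262 genes (925 positive, 1337 negative), for 2352 (1227 and 1125) with column totals only, and for 1357, 465 and 1437 genes without crosses 2121, 2165 and 2183. Without cross 2165, 140 of the 200 members were called. Slopes on the score of the sequenced or of the other tubers, alternatives added after seeing the data, were called for 803 and 912 genes. With cross as a term, DESeq2 called 2 genes, with no adjusted p for 19026, where edgeR called 0. The 46 calls of high against low bruising became 28 with the replicate block, 4 with genes of 1 CPM or more and 0 with cross as a term (1343 at an unadjusted p below 0.05). The 24 calls between replicates became 4 with genes of 1 CPM or more, 0 with cross (1368 unadjusted) and 0 with DESeq2 (1318 unadjusted). The replicate numbers pair no samples, since each genotype was sequenced once, and the block left 2254 slopes called. The slopes, group differences and correlations of the 4 members given by identifier kept their direction in all 216 alternative values, and their slopes kept their calls. Of the candidates, 4CL, AGPB1 and PHO1A, not called for the slope, were called under 5, 5 and 7 of 22 alternatives. The differences of 4CL and 4CL2 between the groups, -0.13 and -0.15 on the log2 scale, became 0.13 and 0.17 with cross as a term, and the slope of 4CL2 with cross went from 0.0089 to -0.014 without cross 2165 (added after seeing the data), with no call in any of these. The cause of these changes was not tested. Genes near 1 CPM rest on few reads in the shallowest libraries.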
